A study of Mus musculus with 8 samples.

Results

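Expression of 40 genes of bone morphogenetic protein (BMP) and transforming growth factor beta (TGF-beta) signalling was examined in embryonic gut cells that lack Bapx1. The members were taken by gene symbol and comprise ligands, receptors, secreted antagonists, Smads and target genes. A probe was named for 39 of them, and 30 were measured above background among 9784 genes tested. The samples labelled Bapx1 null carried EGFP inserted behind the translational start codon on both alleles (Bapx1 tm4.Tlu/tm4.Tlu), which removed a short stretch of the coding sequence. The samples labelled wildtype carried an IRES-EGFP unit in the 3' UTR of 1 allele (Bapx1 +/tm2.Tlu), so that the number of EGFP alleles differed between the genotypes. EGFP was driven by the endogenous Bapx1 regulatory elements in both, and the neomycin cassette of the null allele had been removed with an FLPe deleter line. Guts were dissected at E12.5 from embryos of mixed C57BL/6J;129 background, EGFP-positive cells were sorted, and total RNA of 4 biological replicates per genotype was hybridized to Illumina MouseWG-6 v2 bead arrays. How many embryos stood behind each replicate is not given in the sources used here.

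BMPs and TGF-betas are secreted dimers that bring together type I and type II serine/threonine kinase receptors. The activated type I receptor phosphorylates Smad1, Smad5 and Smad9 in the BMP branch and Smad2 and Smad3 in the TGF-beta and activin branch. These join Smad4 and enter the nucleus, where Id and Msx genes are among the well known BMP targets. In the embryonic gut, BMP4 from the mesenchyme acts on the growth and patterning of the gut wall, and TGF-betas act on smooth muscle and matrix.

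The arrays differed in signal over background, and Bapx1 itself did not follow the labels in a simple way. Between 31.0% and 38.5% of probes were detected on the Bapx1 null arrays, against 38.2% to 40% on the wildtype arrays, with the lowest value on Bapx1 null replicate 2. That array was the lowest or the highest of the 8 arrays for 63.3% of the members and for 61.8% of all genes. Bapx1 (annotated Nkx3-2) had log2 intensities of 6.75, 7.56, 6.65 and 6.46 on the arrays labelled Bapx1 null, against 4.45, 4.50, 4.44 and 4.47 on those labelled wildtype, where its probe was not above background on any array. The place of the Bapx1 probes relative to the inserted cassette is not given in the sources used here, so they do not check the genotype, and every direction given here rests on the labels. Of the gut mesenchyme markers, 14 of 15 were measured, with a summed level of 30300 to 42200 in Bapx1 null and 34800 to 37000 in wildtype samples, and Foxl1 was not above background. Of 11 gut epithelium markers 4 were measured, and Epcam and Cdx2 were not above background. The 4 summed to 426 to 588 in Bapx1 null and 614 to 1150 in wildtype samples, with a median difference of -0.82 and 0 past the adjusted threshold. Of 11 smooth muscle markers 9 were measured, and Cnn1 and Lmod1 were not above background. All 9 were higher in Bapx1 null, 1 of them at an adjusted p under 0.05. The smooth muscle markers summed to 41600 to 48100 in Bapx1 null and 14400 to 28500 in wildtype samples, with Acta2 at the highest level. Of 9 platelet markers 6 were measured, 5 of them lower at an adjusted p under 0.05. They summed to 301 to 576 in Bapx1 null and 1240 to 6660 in wildtype samples, and Itga2b, Gp1bb and Gp9 were not above background. Of 10 erythroid markers 6 were measured, and Alas2, Epb42, Klf1 and Gata1 were not above background. The 6 summed to 272 to 1290 in Bapx1 null and 1570 to 4100 in wildtype samples, and 1 passed the adjusted threshold as lower. Fetal hepatocyte markers, 5 of 13 measured and Alb not above background, summed to 175 to 416 in Bapx1 null and 402 to 11400 in wildtype samples, with a median difference of -3.27. Macrophage and leukocyte markers, 9 of 13 measured and Ptprc not above background, summed to 540 to 1600 in Bapx1 null and 1270 to 2070 in wildtype samples, and 2 passed the adjusted threshold as lower. No endothelium, mesothelium or enteric neural crest marker passed the adjusted threshold, with median differences of -0.31, -0.35 and 0.14. The part of these cell types and of detection in the results below was not tested, and in sorted bulk samples fewer cells of a type and less RNA per cell cannot be told apart.

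None of the 30 measured members changed between Bapx1 null and wildtype gut cells at an adjusted p under 0.05. Over all genes tested 77 passed this threshold, which is 0.787%, and the smallest adjusted p of a member was 0.112, for Tgfb2 (limma, adjusted over all genes). At an unadjusted p under 0.05, 2 members were higher in Bapx1 null, the antagonist genes Fst and Chrd, and 2 were lower, the ligand gene Tgfb2 and the target gene Id4. Each direction thus held 6.67% of the members, whereas 17.2% of all genes were higher and 9.73% lower at this level. On the probe used for each gene, the genotypes did not overlap for 2 members (6.67%), Tgfb2 and Ltbp1, against 18.6% of all genes. Bmp1, Smad3, Bmpr1a and Id2 each had another kept probe without overlap, described below. In all, 13 members were nominally higher and 17 lower (56.7%, against 42.8% of all genes). The median difference was -0.05 for the members and 0.07 for all genes on the log2 scale. The SD was larger in Bapx1 null than in wildtype for 23 of the 30 members (76.7%) and for 87.8% of all genes. By the 1 probe used for each gene, no member differed over 2-fold, and the 95% interval of the difference stayed within 2-fold for 23 members and reached it for 7. Among those 23, Bmpr1a and Id2 each had another kept probe with a difference over 2-fold, described with the probes. Other kept probes at an unadjusted p under 0.05 were also seen for Tgfbr1, lower in Bapx1 null, and for Bmp1, higher. The intervals spanned -1.68 at the lowest and 1.5 at the highest, so a change of 2-fold or more cannot be set aside for those 7. The split at the unadjusted level moved with the scaling. It was 0 higher and 7 lower without normalization between arrays, where the median of all genes was -0.45, and 17 higher and 0 lower with scaling by median and MAD (median absolute deviation), where that median was 1.05. It also moved with single arrays, with 7 members at this level without Bapx1 null replicate 4 and 2 members without Bapx1 null replicate 3, without wildtype replicate 1 or without wildtype replicate 2.

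**Figure D1:**
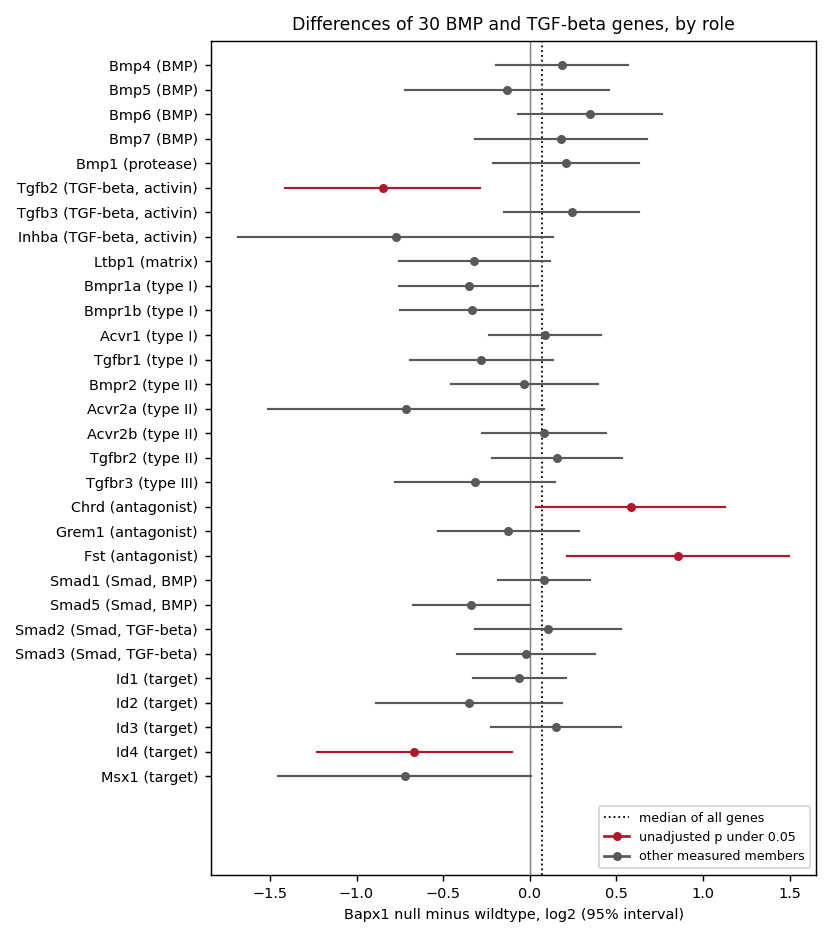
Difference of each of the 30 measured members between Bapx1 null and wildtype (x axis, log2 intensity, Bapx1 null minus wildtype) with its 95% interval, ordered by role. The 4 members at an unadjusted p under 0.05 are Tgfb2 and Id4 on the lower side and Chrd and Fst on the higher side, and the intervals of the other 26 members all include 0.

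Among the TGF-beta and activin ligands, Tgfb2 stood at lower values on every Bapx1 null array than on any wildtype array. TGF-beta 2 is one of the secreted TGF-beta isoforms and is needed for the development of several organs of the mouse embryo. Tgfb2 had log2 intensities of 9.35, 8.63, 9.66 and 9.20 in Bapx1 null, against 10.58, 10.11, 9.83 and 9.70 in wildtype gut cells. The groups did not overlap, but the gap was narrow, with Bapx1 null replicate 3 next to wildtype replicate 4. The difference was -0.85 ± 0.25 (SE, n = 4 each), a level 1.80-fold lower in Bapx1 null, with an unadjusted p of 0.00714 and an adjusted p of 0.112 (limma). Without Bapx1 null replicate 2 the difference was -0.64 and the adjusted p 0.166. With each array's share of detected probes as a further term it was -0.45, with an adjusted p of 0.652.

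Inhba encodes the beta A subunit of activin and inhibin. Its values were 6.37, 6.54, 7.05 and 6.35 in Bapx1 null, against 8.64, 6.86, 7.45 and 6.45 in wildtype samples, so the groups overlapped and wildtype replicate 1 stood high. The difference of -0.77 ± 0.41 (SE, n = 4 each) had an adjusted p of 0.235 (limma) and an interval of -1.68 to 0.13. Without wildtype replicate 1 it was -0.34. Tgfb3, a further TGF-beta isoform, differed by 0.24 ± 0.17 with an interval of -0.15 to 0.63. Ltbp1, which encodes a matrix protein that binds latent TGF-beta, had values of 9.34, 8.69, 9.57 and 9.55 in Bapx1 null, against 9.63, 9.63, 9.58 and 9.59 in wildtype samples. The groups did not overlap, yet 2 of the Bapx1 null arrays lay within 0.1 of the wildtype range, and the wildtype SD was only 0.03. The difference was -0.32 ± 0.20 (adjusted p = 0.290, limma), and -0.12 without Bapx1 null replicate 2.

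The BMP ligands differed little, and 3 of the 4 measured were nominally higher in Bapx1 null, as were 5596 of all 9784 genes. A second Bmp4 probe had the opposite sign, as given with the probes. Bmp4, the main BMP of the gut mesenchyme, had values of 10.93, 11.22, 10.62 and 10.65 in Bapx1 null, against 10.88, 10.45, 10.62 and 10.71 in wildtype samples. The groups overlapped, and the difference of 0.19 ± 0.17 had an interval of -0.20 to 0.57, within 2-fold. Bmp6 differed by 0.35 ± 0.19 and was detected on 3 Bapx1 null and 2 wildtype arrays. Bmp7 differed by 0.18 ± 0.22. Bmp5 differed by -0.13 ± 0.26, where Bapx1 null replicate 2 was lowest at 5.25 and replicate 4 highest at 6.71, while the wildtype values lay between 6.16 and 6.23. Bmp1, which in spite of its name encodes a metalloprotease that cleaves procollagens and chordin, differed by 0.21 ± 0.19 by the probe used and by 0.26 and 0.32 by its other kept probes. On the probe at 0.32 the groups did not overlap (unadjusted p = 0.047, limma). Its values were 8.77 to 9.21 in Bapx1 null and 8.52 to 8.72 in wildtype samples.

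**Figure D2:**
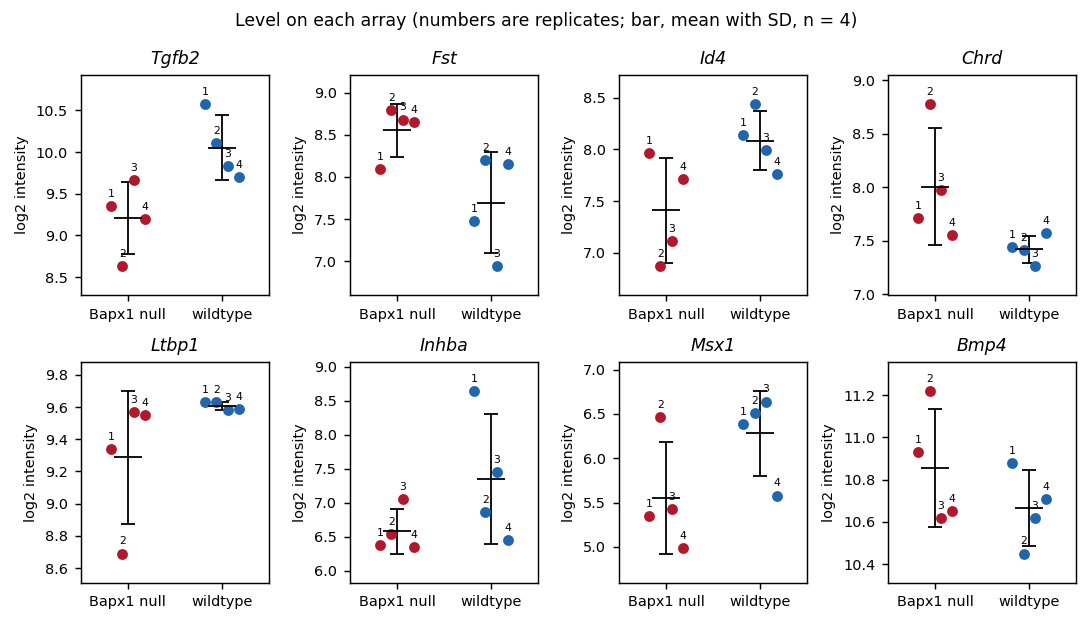
Log2 intensity (y axis) of 8 members on each array, Bapx1 null on the left and wildtype on the right of each panel, with the mean and SD (n = 4 each) and the replicate number above each point. Tgfb2 and Ltbp1 show no overlap between the genotypes, and single arrays stand apart for Chrd (Bapx1 null replicate 2, 8.78) and Inhba (wildtype replicate 1, 8.64).

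Secreted antagonists bind ligands before they reach a receptor, and those measured included the 2 members with the largest positive differences, Fst and Chrd. Fst encodes follistatin, which binds activins and, less tightly, some BMPs. Fst had values of 8.09, 8.79, 8.68 and 8.65 in Bapx1 null, against 7.48, 8.20, 6.94 and 8.15 in wildtype samples. The Bapx1 null arrays were close to each other apart from replicate 1, which fell among the wildtype values, and the wildtype arrays were spread over a wider range. The difference was 0.86 ± 0.29 (SE, n = 4 each), 1.81-fold, with an unadjusted p of 0.0137 and an adjusted p of 0.126 (limma). It was 0.78 without Bapx1 null replicate 2 and 0.61 without wildtype replicate 3. With each array's share of detected probes as a further term the difference of Fst was 0.80, with an adjusted p of 0.555. Chrd encodes chordin, which binds BMPs, and had values of 7.71, 8.78, 7.97 and 7.55 in Bapx1 null, against 7.44, 7.41, 7.26 and 7.57 in wildtype samples. Bapx1 null replicate 2 was far above the others and replicate 4 lay within the wildtype range. The difference was 0.58 ± 0.24 (adjusted p = 0.168, limma) and was 0.32 without Bapx1 null replicate 2, with an unadjusted p of 0.0458. With the share of detected probes as a further term it was 0.04. Without normalization between arrays Fst differed by 0.26 and Chrd by -0.03, against a median of all genes of -0.45. Grem1, which encodes the BMP antagonist gremlin 1, differed by -0.12 ± 0.18 with an interval of -0.53 to 0.28.

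Receptor genes were measured for 4 type I, 4 type II and 1 type III receptor, and the groups overlapped for all 9 on the probe used. Of the type I receptors, Bmpr1a and Bmpr1b, which bind BMPs, differed by -0.35 ± 0.18 and -0.34 ± 0.19 and Tgfbr1, the TGF-beta receptor kinase, by -0.28 ± 0.18. Acvr1, which also takes part in BMP signalling, differed by 0.09 ± 0.14. The intervals of these 4 genes lay between -0.75 and 0.41. Without Bapx1 null replicate 2 Bmpr1b differed by -0.18, and without Bapx1 null replicate 3 Tgfbr1 differed by -0.14. Of the type II receptors, Bmpr2 differed by -0.03 ± 0.19, Acvr2b by 0.08 ± 0.16 and Tgfbr2 by 0.16 ± 0.17. Acvr2a, a type II receptor for activins and BMPs, had values of 7.56, 6.07, 7.32 and 8.09 in Bapx1 null, against 7.85, 8.05, 7.83 and 8.18 in wildtype samples. Its difference of -0.72 ± 0.36 had an interval of -1.51 to 0.08 and was -0.32 without Bapx1 null replicate 2, the lowest array, on which Acvr2a was not detected. Tgfbr3, the type III co-receptor betaglycan, differed by -0.32 ± 0.21 (adjusted p = 0.317, limma) and by -0.13 without Bapx1 null replicate 2.

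Smads were measured for both branches, and the groups overlapped on the probe used for each gene. Smad1 values lay between 10.75 and 10.92 in Bapx1 null and between 10.64 and 10.83 in wildtype samples, a difference of 0.08 ± 0.12 with an interval of -0.19 to 0.35. Smad5 had values of 10.11, 9.69, 9.91 and 10.29 in Bapx1 null, against 10.30, 10.43, 10.34 and 10.28 in wildtype samples. Of the Bapx1 null arrays only replicate 4 reached the wildtype range, and the difference of -0.34 ± 0.15 had an unadjusted p of 0.0514 and an adjusted p of 0.187 (limma). It was -0.23 without Bapx1 null replicate 2. Smad2 and Smad3 differed by 0.10 ± 0.19 and -0.02 ± 0.18, with intervals of -0.32 to 0.53 and -0.42 to 0.38. A second Smad3 probe, detected on all 8 arrays, differed by -0.33 ± 0.22. On that probe the groups narrowly did not overlap, with at most 9.26 in Bapx1 null and at least 9.27 in wildtype samples.

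**Figure D3:**
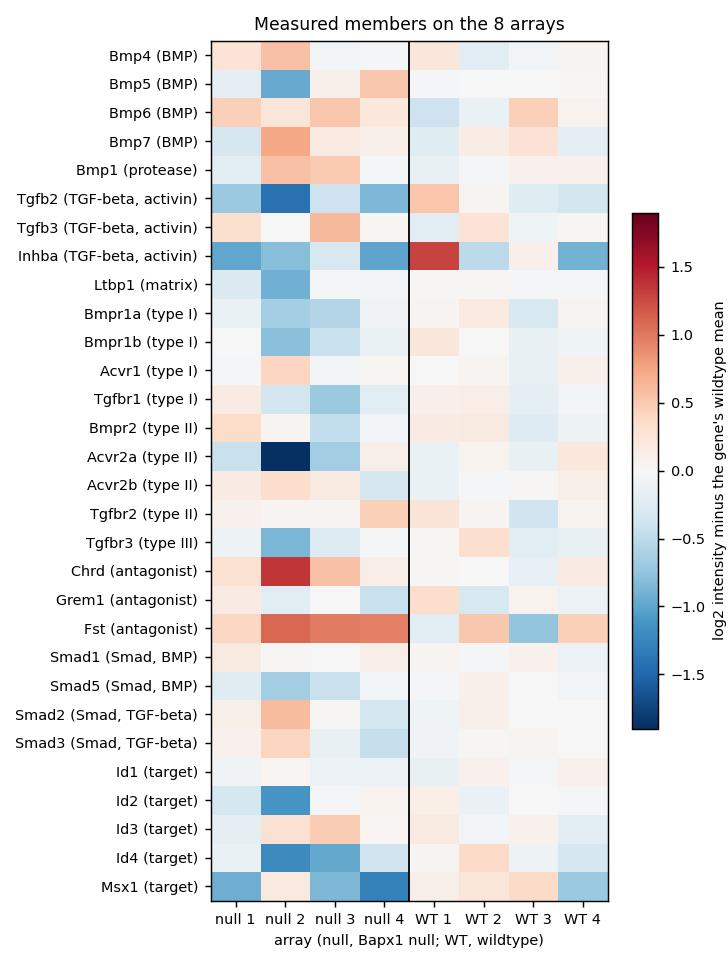
Log2 intensity of each measured member (rows, by role) on each array (columns, Bapx1 null on the left, wildtype on the right) minus the member's wildtype mean. The Bapx1 null arrays vary more than the wildtype arrays for 23 of 30 members, and Bapx1 null replicate 2 is the lowest or highest of the 8 arrays for 63.3% of them.

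Among target genes, 4 of the 5 measured were nominally lower in Bapx1 null, against 42.8% of all genes. By the probe used, only Id4 was lower at an unadjusted p under 0.05, and the direction of Id2 depended on the probe. Id proteins lack a DNA-binding domain and hold basic helix-loop-helix factors in inactive pairs. Id4 had values of 7.96, 6.87, 7.11 and 7.71 in Bapx1 null, against 8.14, 8.44, 7.99 and 7.76 in wildtype samples. Bapx1 null replicates 2 and 3 were low, whereas replicate 1 lay within the wildtype range. The difference was -0.67 ± 0.25 (SE, n = 4 each), with an unadjusted p of 0.0249 and an adjusted p of 0.146 (limma). It was -0.48 with an unadjusted p of 0.0636 without Bapx1 null replicate 2. With each array's share of detected probes as a further term it was -0.28, with an adjusted p of 0.782. Id1, which responds directly to BMP Smads, was nearly level, with 9.70, 9.80, 9.66 and 9.65 in Bapx1 null and 9.62, 9.84, 9.75 and 9.85 in wildtype samples. Its difference of -0.06 ± 0.12 had an interval of -0.33 to 0.21. Id3 differed by 0.15 ± 0.17 with an interval of -0.22 to 0.53. The homeobox gene Msx1 had values of 5.35, 6.46, 5.43 and 4.99 in Bapx1 null, against 6.39, 6.51, 6.64 and 5.58 in wildtype samples, and was detected on 1 Bapx1 null and 4 wildtype arrays. Its difference of -0.72 ± 0.33 (adjusted p = 0.188, limma) therefore includes values at background. Bapx1 null replicate 2 was the Bapx1 null array on which Msx1 was detected, and on the other 3 its probe was not above background. Its raw intensities were nearly equal in Bapx1 null (73.3, 72.7, 70.8 and 71.2), against 91.2 to 164.9 in wildtype samples. The lowest detected intensity was 69.6 on Bapx1 null replicate 2, below that of every other array. Without that replicate the Msx1 difference was -1.10 (unadjusted p = 0.00281, adjusted p = 0.0975, limma), and without Bapx1 null replicate 4 it was -0.53. Without normalization between arrays it was -1.37 (adjusted p = 0.0732), against a median of all genes of -0.45.

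The probes of Id2 disagreed, and this was the sharpest contrast among the members with several probes. The probe with the highest mean, used above, had values of 9.97, 9.18, 10.26 and 10.37 in Bapx1 null, against 10.43, 10.18, 10.31 and 10.28 in wildtype samples, a difference of -0.35 ± 0.24. Another probe had 9.74, 9.78, 9.37 and 9.06 in Bapx1 null, against 8.65, 8.35, 8.67 and 8.23 in wildtype samples. There the groups did not overlap, the difference was 1.01 ± 0.20, and the adjusted p over all kept probes was 0.0672 (limma). The third kept probe differed by -0.87 ± 0.32, and the platform annotation pairs the probe that was higher with a different cDNA record from the other 2. A direction for Id2 thus depended on the probe. Bmpr1a differed by -0.35 by the probe used and by -1.49 ± 0.57 by a second probe, detected on 2 Bapx1 null and 4 wildtype arrays, with values of 7.72, 5.31, 5.53 and 7.96 in Bapx1 null, against 8.13, 8.28, 8.02 and 8.06 in wildtype samples. On that second probe all Bapx1 null arrays were below the wildtype arrays, by far for replicates 2 and 3 and narrowly for replicates 1 and 4. The probe of Tgfbr1 used differed by -0.28, and its other kept probes by -0.86 ± 0.33 and -0.64 ± 0.27. Their unadjusted p was 0.0266 and 0.0395, and their adjusted p over all kept probes 0.1585 and 0.179 (limma). The former was detected on 2 Bapx1 null and 4 wildtype arrays, the latter on all 8 arrays. The kept probes of Smad5 differed by -0.34 and -0.59, in 1 direction as for Tgfbr1. The second Smad5 probe was detected on 2 Bapx1 null and 4 wildtype arrays. A second Bmp4 probe, detected on 1 Bapx1 null and 3 wildtype arrays, differed by -0.48 ± 0.23, opposite in sign to the probe used. The kept probes of Smad1 differed by 0.08, -0.03 and 0.27. With every kept probe tested separately, an alternative chosen after seeing the data, no probe of a member passed the adjusted threshold.

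**Figure D4:**
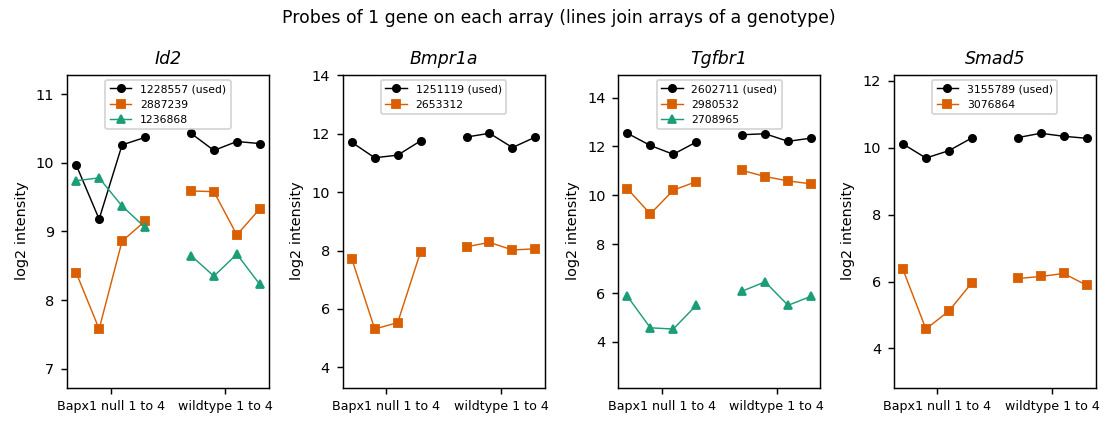
Log2 intensity (y axis) of every kept probe of Id2, Bmpr1a, Tgfbr1 and Smad5 on the 4 Bapx1 null arrays (left) and the 4 wildtype arrays (right). The Id2 probe ILMN_1236868 is higher on all Bapx1 null arrays than on any wildtype array, whereas the other 2 Id2 probes are lower on Bapx1 null replicates 1 and 2 than on any wildtype array.

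The other 10 members gave no difference. Bmp2, Acvr1b, the pseudoreceptor gene Bambi, the antagonist gene Nog, Smad9, the inhibitory Smad genes Smad6 and Smad7, and Msx2 were not above background on any array, and Tgfb1 was detected on 1 Bapx1 null array only. Raw intensities of the named probe of Nog lay between 52.7 and 63.7 in Bapx1 null and between 54.5 and 63.3 in wildtype samples. For Tgfb1 they lay between 53.0 and 76.9 in Bapx1 null and between 57.0 and 80.0 in wildtype samples. These values do not show that the genes were silent, and neither genotype can be given a level. Smad4 had no probe named here.

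Short promoter windows were read from RefSeq (GRCm38.p6) for 28 of the 40 members, 34 windows of 300 bases each from 250 bases before to 50 bases after a start site, and searched on both strands. The Bapx1 core TAAGTG or TGAGTG was present in 4 of the 34 windows (11.8%) and in 23.9% of all 32851 windows, the members being Bmp6, Id2, Ltbp1 and Smad9. The Smad box GTCTG was present in 15 windows (44.1%) and in 49.6% of all windows. The GC-rich palindrome GGCGCC, a sequence bound by Smads of the BMP branch, was present in 11 windows (32.4%) and in 11.9% of all windows. Those of the members belong to 10 genes, since overlapping windows of Smad5 hold the same site. The windows were not matched for G and C content, so the higher share was not tested. The lines below show a selection of the motifs, in capitals, in members with a nominal or non-overlapping difference or with discordant probes, in the direction of the gene. Left out of them are Smad boxes of Chrd (position 7 from the start) and Ltbp1 (positions -64, -148 and -97), the palindrome of Bmpr1a (position -198), and the motifs of Tgfbr1 and Smad5. Smad boxes were present in 13 members in all. The core and the palindrome of Id2 lie in overlapping windows but share no letters. In the Tgfb2 lines and the Id2 core line the capitals are the reverse complement of the motif. They describe the sequence only, and binding at these places was not analysed here.
Tgfb2, Smad box at position -221 from the start, chr1:186706193-186706222, minus strand: cccctccacacaCAGACccttggtgatcac
Tgfb2, Smad box at position -204, chr1:186706176-186706205, minus strand: ccttggtgatcaCAGACagtgactactgca
Chrd, GC palindrome at position -203, chr16:20732912-20732941, plus strand: cgggccagagccGGCGCCtagggcactaaa
Id4, GC palindrome at position -148, chr13:48260956-48260985, plus strand: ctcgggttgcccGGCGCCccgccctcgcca
Id2, GC palindrome at position -231, chr12:25096306-25096335, minus strand: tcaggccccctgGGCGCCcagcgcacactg
Id2, Bapx1 core at position -246, chr12:25096313-25096342, minus strand: tgcaCACTCAggccccctgggcgcccagcg
Ltbp1, Bapx1 core at position -242, chr17:75178531-75178560, plus strand: tgacttaaTAAGTGgaggaaccgggaaagt

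Among the members named in these lines, Tgfb2, Id4 and Ltbp1 had lower and Chrd higher nominal values in Bapx1 null, so members with the GC palindrome lay on both sides. The Bapx1 core in Ltbp1 belongs to one of its alternative start sites. Fst has no entry among the promoter windows.

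Other genes of the pathway were read from a list of 122 genes that leaves out the members, and 64 of them were measured. Of these 3 changed at an adjusted p under 0.05 (4.69%, against 0.787% of all genes), all of them listed as response genes. Since the list was chosen with earlier results of these data known, these shares do not test it against all genes. Ccn2, a matricellular gene induced by TGF-beta, had values of 10.13, 10.53, 10.27 and 10.58 in Bapx1 null, against 9.50, 9.46, 9.43 and 9.73 in wildtype samples, and rose by 0.85 ± 0.15 (adjusted p = 0.0372, limma). Tagln, a smooth muscle gene, had 6.18, 5.87, 6.20 and 6.13 in Bapx1 null, against 4.88, 4.92, 5.34 and 5.36 in wildtype samples, a rise of 0.97 ± 0.16 (adjusted p = 0.0317). Its probe was detected on 3 Bapx1 null and 1 wildtype arrays, so the size of this difference includes values at background. The T-box gene Tbx3, a BMP target in several embryonic tissues, had 8.08, 8.0, 8.75 and 8.16 in Bapx1 null, against 9.18, 9.47, 9.52 and 9.15 in wildtype samples, a difference of -1.08 ± 0.19 (adjusted p = 0.0372). The genotypes did not overlap for any of these 3 genes. None of the 3 stayed past the threshold with the deposited processed values or with median and MAD scaling, and 0 to 10 of the listed genes passed when 1 array was left out, with 10 without Bapx1 null replicate 4 and 0 without wildtype replicate 1, 3 or 4. Without Bapx1 null replicates 1 or 3 or wildtype replicate 2 the count was 1 each. Tagln and Acta2 are also smooth muscle markers, whose summed level was 41600 to 48100 in Bapx1 null and 14400 to 28500 in wildtype samples, and the part of that difference was not tested.

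Close to the threshold, Acta2, the smooth muscle actin gene, differed by 1.12 ± 0.21 (adjusted p = 0.0502, limma). Extracellular regulators followed in both directions. Sostdc1, a secreted BMP and Wnt antagonist gene, had 5.28, 4.68, 5.65 and 5.68 in Bapx1 null, against 8.96, 5.85, 7.89 and 7.72 in wildtype samples, a difference of -2.29 ± 0.55 (adjusted p = 0.0805) that includes values at background, since its probe was detected on 2 Bapx1 null and 4 wildtype arrays. Dcn, which encodes the matrix proteoglycan decorin that can bind TGF-beta, differed by 1.0 ± 0.25 (adjusted p = 0.0889). The latent TGF-beta binding protein gene Ltbp3 differed by 0.50 ± 0.14 (adjusted p = 0.103), opposite in sign to Ltbp1, and the ligand gene Gdf1 by 0.73 ± 0.19 (adjusted p = 0.0977). At an unadjusted p under 0.05, 12 of the 64 genes were higher (18.8%, against 17.2% of all genes) and 12 lower (18.8%, against 9.73%). The lower ones included 6 of 22 intracellular modulators, such as the kinase gene Map3k7 at -0.71 ± 0.26 and the Smad corepressor gene Skil at -0.41 ± 0.18. Its relative Ski differed by 0.70 ± 0.20, the sole modulator that was higher at this level. Map3k7, Skil and Ski were chosen as examples after their values were seen. The list itself was chosen with earlier results of these data known, so its shares are a description only.

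The nominal direction of the members was stable for some and not for others across the settings tried. Relative to the median of all genes in each setting, Tgfb2, Id4, Inhba, Msx1 and Grem1 were lower and Fst and Chrd higher in every setting in which they were measured. Tgfb2 ranged from -1.06 to -0.47, Id4 from -1.30 to -0.27, Fst from 0.52 to 0.96 and Chrd from 0.02 to 0.63. Each of the other 23 members changed sign at least once, apart from Bmpr1b, which reached 0 at its highest. With median and MAD scaling the difference of Tgfb2 itself was 0.40, below the median of all genes of 1.05, so that its direction as an absolute change turned.

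**Figure D5:**
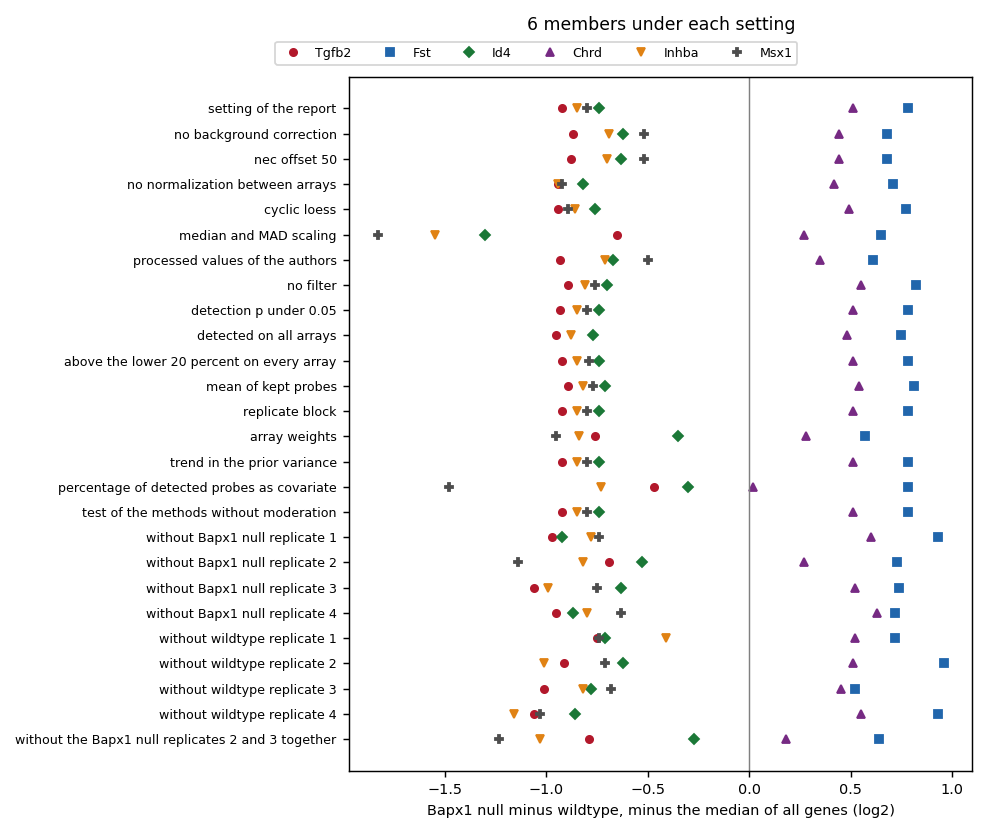
Difference between Bapx1 null and wildtype minus the median of all genes (x axis, log2) for 6 members under each processing setting (y axis). Tgfb2, Id4, Inhba and Msx1 stay below 0 and Fst and Chrd above 0 in every setting shown, with Chrd near 0 (0.02) when the share of detected probes is a further term.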

How the data were processed

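Intensities were deposited without normalization (GenomeStudio, per the labels), 1 value per probe and array for 45281 probes. The deposited detection score, headed as a p-value, rises with intensity, so 1 minus the score was read as the detection p. A deposited table of log2 values holds the processed values of the authors, centred on each array's median and on a baseline per probe. The methods describe background subtraction and scaling by median absolute deviation, neither of which was found in these values, and they were used as an alternative only. The number of arrays, 4 per genotype, limits the precision. The p-values set each difference against the spread between replicate arrays, pooled over both genotypes. That spread was unequal, with a median SD over all genes of 0.33 in Bapx1 null and 0.14 in wildtype samples.

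Intensities were background corrected (limma 3.58.1 in R 4.3.3, nec, offset 16), taken to log2 and quantile normalized. Probes with a detection p under 0.01 on at least 4 arrays were kept, 1 per gene (highest mean). Bapx1 null was compared with wildtype by lmFit and eBayes with genotype as the only term and Benjamini-Hochberg adjustment over 9784 genes, threshold 0.05. Differences are Bapx1 null minus wildtype, with intervals at 95%. The fit was tested on simulated data. Marker sums add linear levels over the measured genes of a list. Per-array values are given for members at an unadjusted p under 0.05 or without overlap, for others where an array or probe stands apart, and for pathway genes by threshold or smallest p. Members and lists were chosen with earlier results of these data known. Replicate numbers were not treated as pairs, since the labels give no pairing. Deviations of same-numbered arrays correlated at 0.15, -0.18, -0.06 and -0.14, which cannot exclude a shared litter, day or chip.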

Additional observations from a re-analysis of the deposited data

Results flagged for a closer look

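Of 60 sets of 4 arrays (30 members, each in both genotypes), 1 held an array far from the others. Tgfbr2, the type II receptor for TGF-beta, had a log2 intensity of 11.44 on Bapx1 null replicate 4, whereas the other Bapx1 null arrays lay between 11.04 and 11.08, with the gap taking a share of 0.899 of the whole range. The rule used marks about 1 in 20 such sets by chance. Chrd on Bapx1 null replicate 2 and Inhba on wildtype replicate 1 were not marked by it.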

How the results depend on the processing

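The count of members past the threshold was 0 in each of 26 alternatives, including every kept probe tested separately, where the smallest adjusted p was 0.0672 (limma), and the test of the methods without moderation. It was also 0 without Bapx1 null replicate 4, where 13.3% of all genes passed and the smallest adjusted p of a member was 0.0626. With the replicate number as a block, 0 members and 51 of all genes passed the adjusted threshold. At an unadjusted p under 0.05 there were 6 members with the block, 2 higher and 4 lower, with Msx1 and Acvr2a added to the lower ones. Whether same-numbered arrays share more than a number is not given in the sources used here. The median difference of the members relative to all genes was -0.12 and became 0.1 with median and MAD scaling.

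The count of members at an unadjusted p under 0.05, added after seeing the data, was 4. It became 7 without normalization between arrays, 17 with median and MAD scaling, and 2 with array weights or without Bapx1 null replicates 2 and 3 together. It ran from 2 to 7 when 1 array was left out. The count of other pathway genes past the threshold was 3. It became 1 without normalization between arrays, without the filter, with the replicate block, and without Bapx1 null replicates 2 and 3 together. It became 0 with median and MAD scaling, with the processed values of the authors, with the share of detected probes as a term and with the test of the methods without moderation. It became 5 with a detection p under 0.05 and 6 with array weights, and ran from 0 to 10 when 1 array was left out. The cause of these moves was not tested.

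With 4 arrays per genotype, a change of 2-fold lay outside the 95% interval of the probe used for 23 members and inside it for 7. For Bmpr1a and Id2, both among the 23, another kept probe differed by over 2-fold. For Tgfbr1, also among the 23, the other kept probes differed more than the probe used, by -0.86 and -0.64. Signal over background limits the 9 members with a probe that were not measured, since intensities near background carry no level.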
